A study of Mus musculus with 12 samples.

Results

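Lef1, Bcl2 and Rnf157 were 3 protein-coding genes with an intron in which FOXP3 was listed in wild-type (WT) regulatory T cells (Tregs) and again, at the same place, in Tregs without Ku70 (KO). They were chosen from the FOXP3 region lists themselves, among 21951 protein-coding genes, because an intronic WT region overlapped a KO region by at least 1 bp. That condition alone does not single them out: 10 of 21 such overlaps in single-copy sequence lay inside a protein-coding gene, and these 3 genes held the 3 highest WT fold enrichments of the 21. The overlap, and the fold enrichment and reads of those regions, are therefore given as a description with no test. In the gene or 50 kb to either side, the 4 lists of the study held 9 of their 9381 regions at these 3 genes. Of these 9 regions, 4 were WT FOXP3, 4 were KO FOXP3, 1 was Ku70 in Tregs and none was Ku70 in conventional T cells (Tconv).

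The study used chromatin immunoprecipitation sequencing in mouse T cells, with 12 samples in 4 sets of 2 replicates and 1 input each. FOXP3 was profiled in WT Tregs and in Xrcc6 knockout Tregs, and Ku70, the product of Xrcc6, in WT Tregs and in WT Tconv cells. According to the study's methods, all mice carried the Foxp3 Yfp-Cre allele, which also served as the WT control. The KO mice carried Xrcc6 fl/fl in addition, so that the deletion was restricted to cells in which the Foxp3 promoter drives Cre. Tregs were sorted as CD4+CD25+YFP+ cells and Tconv cells as CD4+CD25-YFP- cells from mice on the C57BL/6J background, and the age of the mice used for this assay is not given in the sources used here. Region lists hold no expression, so neither the loss of Ku70 nor the cell type could be checked against marker genes. Region names inside the lists read iTreg, Teff and CKO where the labels give Treg, Tconv and KO, and the labels were followed.

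FOXP3 is the forkhead transcription factor that defines Tregs and binds largely at enhancers already opened by partner factors such as RUNX and ETS proteins. Ku70 forms, with Ku80, the ring that holds broken DNA ends for non-homologous end joining. LEF1 is a TCF/LEF factor that acts with β-catenin in Wnt signalling and is highly expressed in naive T cells. BCL2 blocks the mitochondrial pathway of apoptosis and sustains resting lymphocytes. RNF157 is a RING-type E3 ubiquitin ligase related to MGRN1.

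The 3 kept WT regions are shown first because each result below turns on them, and because all 3 hold the RUNX core. They are read from the GRCm38 reference (mm10), 5′ to 3′ on the plus strand, and the capitals mark the core TGTGGT or its reverse complement.

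Lef1 intron 3, chr3:131157547-131157730: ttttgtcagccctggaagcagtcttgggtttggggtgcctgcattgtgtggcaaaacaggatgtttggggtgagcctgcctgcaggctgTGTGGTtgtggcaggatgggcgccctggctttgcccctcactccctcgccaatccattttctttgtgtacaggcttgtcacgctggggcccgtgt

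Bcl2 intron 1, chr1:106612783-106612926: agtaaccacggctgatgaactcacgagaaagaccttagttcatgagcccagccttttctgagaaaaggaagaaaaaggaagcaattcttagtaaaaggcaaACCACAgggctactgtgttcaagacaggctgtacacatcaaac

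Rnf157 intron 2, chr11:116377172-116377340: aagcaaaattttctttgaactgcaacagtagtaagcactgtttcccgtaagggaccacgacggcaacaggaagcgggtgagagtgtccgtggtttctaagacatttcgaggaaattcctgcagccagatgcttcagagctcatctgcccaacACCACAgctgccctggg

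Bcl2 and Rnf157 lie on the minus strand and Lef1 on the plus strand, so the printed strand is the coding strand of Lef1 alone. The 31 bases around each of the 10 summits at the 3 genes occurred once in the genome. No region at the 3 genes had a further alignment of at least 90% identity over 80% of its length.

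The values of a region are those of its summit, the base with the highest enrichment. The lists give the fold enrichment over the local background and an unadjusted p-value. From these, the whole number of stacked reads at the summit was recovered, each read extended to 140 bp, and it is the depth behind each fold. A region entered the list with as few as 10 reads for WT FOXP3, KO FOXP3 and Tconv Ku70 and 8 reads for Treg Ku70. The median region held 12 reads for WT FOXP3, KO FOXP3 and Tconv Ku70 and 9 for Treg Ku70. The lowest local background was 4.38 reads in the WT and 3.84 in the KO FOXP3 list, and 3.43 in the Treg and 3.82 in the Tconv Ku70 list. Every one of the 9 regions at the 3 genes had a q-value of 1. Since the replicates of a set were pooled before calling, there is no replicate error, and the exact 95% Poisson intervals below cover counting error only.

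In Lef1 (ENSMUSG00000027985.14, chr3:131110471-131224356, plus strand), 1 FOXP3 site was listed, in both genotypes. The WT region was 184 bp wide, with 19 reads at its summit (interval 11.4 to 29.7), a fold enrichment of 3.19 and a p-value of 0.000175. The KO region, chr3:131157521-131157711, was 191 bp wide, with 21 reads (13.0 to 32.1), a fold of 3.50 and a p-value of 0.000345. Both genotypes were thus listed well above the minimum of 10 reads, and their summits were 1 bp apart. The regions shared 165 bp. The site lies 47.2 kb from the start of the gene, inside intron 3, which is 69.1 kb long. It is intronic in each of the 7 transcripts that span it, and the nearest exons are 42.1 kb upstream and 27.0 kb downstream. By fold the site stood at place 20 of 1751 in the WT list and at place 17 of 544 in the KO list.

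In Bcl2 (ENSMUSG00000057329.7, chr1:106538178-106714274, minus strand), 1 site was kept and each genotype had another site of its own. The kept WT region was 144 bp wide, with 18 reads (10.7 to 28.4), a fold of 3.04 and a p-value of 0.000842. The kept KO region, chr1:106612678-106613076, was 399 bp wide and contained the WT region whole, with 21 reads (13.0 to 32.1) and a fold of 3.50. The summits were 11 bp apart. The KO region was the widest of the 9, but it had no more reads at its summit than the KO region of Lef1. The kept site lies 101.4 kb from the start of the gene, in intron 1, which separates the 2 exons of the coding transcript and is 168.9 kb long.

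The other sites of Bcl2 were weaker. The WT region chr1:106496493-106496737 lay 41.5 kb past the end of the gene, in no annotated gene, with 13 reads (6.92 to 22.2), a fold of 2.29 and a p-value of 0.0138. It was absent from the KO list, where the nearest region was 104 kb away. The KO region chr1:106600883-106601115 had 2 summits, of 12 reads with a fold of 2.19 and of 10 reads with a fold of 1.90. It was absent from the WT list and lay in intron 1 too, 11.9 kb from the kept site. These single-list sites stood at place 317 of the WT list and at place 195 of the KO list, whereas the kept Bcl2 site stood at places 27 and 17. Their reads were within 3 of the 10 needed to be listed, so their absence from the other list does not show a difference at this depth.

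In Rnf157 (ENSMUSG00000052949.14, chr11:116336353-116413032, minus strand), the kept site was strong in WT and at the limit of listing in KO. The WT region was 169 bp wide, with 21 reads (13.0 to 32.1) over a local background of 4.57 reads, a fold of 3.40 and a p-value of 4.65e-05. The KO region, chr11:116377172-116377360, had 10 reads (4.80 to 18.4), a fold of 1.90 and a p-value of 0.0398. With 1 read fewer it would not have been in the KO list, and Rnf157 would not have met the rule. The regions began at the same base and shared 169 bp, the whole WT region, with summits 40 bp apart. The site lies 35.8 kb from the start, in intron 2, which is 33.8 kb long, and it is intronic in the 3 transcripts that span it. Among all 1751 WT regions it stood at place 15 by fold, ahead of Lef1 and Bcl2, and in the KO list at place 386 of 544.

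**Figure D1:**
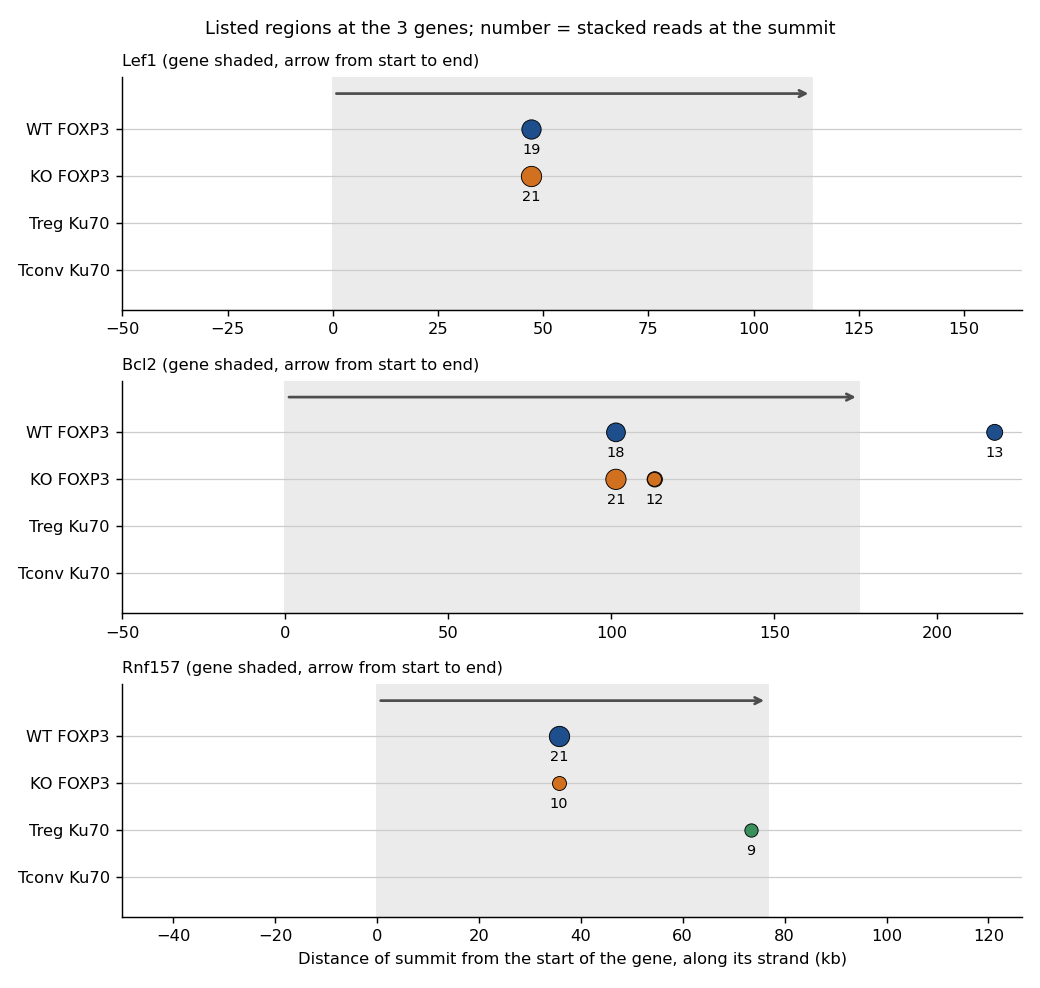
Position of every listed region at Lef1, Bcl2 and Rnf157, as the distance of its summit from the start of the gene in kb, with 1 row per list. The area of a point and the number under it give the stacked reads at the summit; for the KO site of Bcl2 with 2 summits the number is that of the higher one. WT and KO FOXP3 points coincide once in each gene, and the only Ku70 point, 9 reads in Tregs, is near the end of Rnf157.

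**Figure D2:**
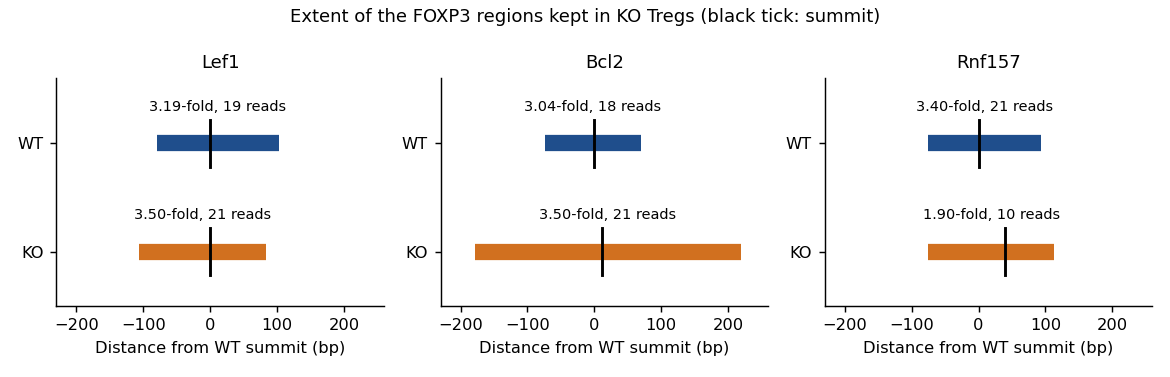
Extent of the kept FOXP3 regions in WT (upper bar) and KO Tregs (lower bar) in bp from the WT summit, with the summit of each as a black tick. WT regions are 144 to 184 bp wide and the KO region of Bcl2 is 399 bp wide. The Rnf157 summits are 40 bp apart, and those of Lef1 and Bcl2 are 1 and 11 bp apart.

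To set WT beside KO, the reads of each summit were divided by the lowest local background of its list. This matches that background alone, and the inputs, the signal over noise and the replicates of the lists remain unmatched. On this scale KO over WT was 1.26 at Lef1, 1.33 at Bcl2 and 0.543 at Rnf157. The intervals of these ratios were 0.645 to 2.48, 0.675 to 2.65 and 0.228 to 1.21, in that order. Each interval covers counting error only and includes 1. The ratios are a description and carry no test, since they rest on summits that had to reach 10 reads in both lists, and a site that fell below this in KO could not appear among them.

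A kept FOXP3 region was rare across the genome. A WT region was found at 7.18% of protein-coding genes under the same window, and a KO region at 2.65%. A WT region that overlapped a KO region was found at 0.228% of protein-coding genes, that is at 50 genes, and 2.28% of WT regions, 40 of 1751, overlapped a KO region. The rule fixed these calls for the 3 genes, so nothing is read from their being 3 of 3. All 3 are long genes, which take up more of any list: Lef1 spans 113.9 kb, Bcl2 176.1 kb and Rnf157 76.7 kb, and 90.5%, 94.7% and 84.9% of protein-coding genes are shorter. Among the 3324 genes at least as long as Rnf157, 14.7% had a WT FOXP3 region and 5.20% a KO FOXP3 region. The windows of the 3 genes also took in Hadh beside Lef1, Kdsr and Vps4b beside Bcl2, and Exoc7, Foxj1, Ubald2 and Qrich2 beside Rnf157, and none of the 9 regions lay in any of these 7 genes.

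Ku70 was listed once at the 3 genes, in Tregs. The Treg Ku70 list was the longest of the 4, with 5295 regions, and 23.4% of protein-coding genes had one in this window, as did 40.0% of the long genes. Of the 3 genes, Rnf157 alone had one, and Lef1 and Bcl2 had none. It was chr11:116339648-116339915, 268 bp wide, with 9 reads (4.12 to 17.1), a fold of 2.04 and a p-value of 0.0338, which is 1 read above the minimum of that list. It lay in intron 18, 0.855 kb before the last exon of the gene and 37.6 kb from the kept FOXP3 site. A Tconv Ku70 region was found at 10.8% of protein-coding genes and at none of the 3. At the genome-wide density of each list, the windows of 666.7 kb in all would hold 1.28 Treg Ku70 and 0.417 Tconv Ku70 regions, so the counts of 1 and 0 were close to that density. For FOXP3 the same figures were 0.419 for WT and 0.128 for KO, against counts of 4 and 4. The choice of the genes had fixed 3 of each, and the remaining region of each list, both at Bcl2, was not required by it.

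No FOXP3 region at the 3 genes overlapped a Ku70 region. Across the WT list, 2.4% of regions overlapped a Treg Ku70 region and 1.88% a Tconv Ku70 region, that is 42 and 33 regions, of which 15 and 15 were among the 40 WT regions kept in KO. From the kept Lef1 site the nearest Treg Ku70 summit was 864 kb away, and 95.1% of 1712 WT regions on the chromosomes had a nearer one. From the kept Bcl2 site it was 501 kb away (85.6% had a nearer one) and from the Rnf157 site 37.6 kb (24.7%), beside a median of 135 kb over the WT list. The nearest Tconv Ku70 summit was 125 kb from the Lef1 site and 840 kb from the Rnf157 site, beside a median of 685 kb. From the Bcl2 site it was 10782 kb away, farther than for 99.6% of WT regions. Lef1 and Bcl2 thus lay far from any listed Ku70 in Tregs, and Rnf157 nearer than most FOXP3 regions. The Tconv Ku70 summit nearest to Lef1 lay 58.1 kb past the end of the gene with 12 reads, just outside the 50 kb window, and the WT region past Bcl2, at 41.5 kb, was the outermost one inside it.

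**Figure D3:**
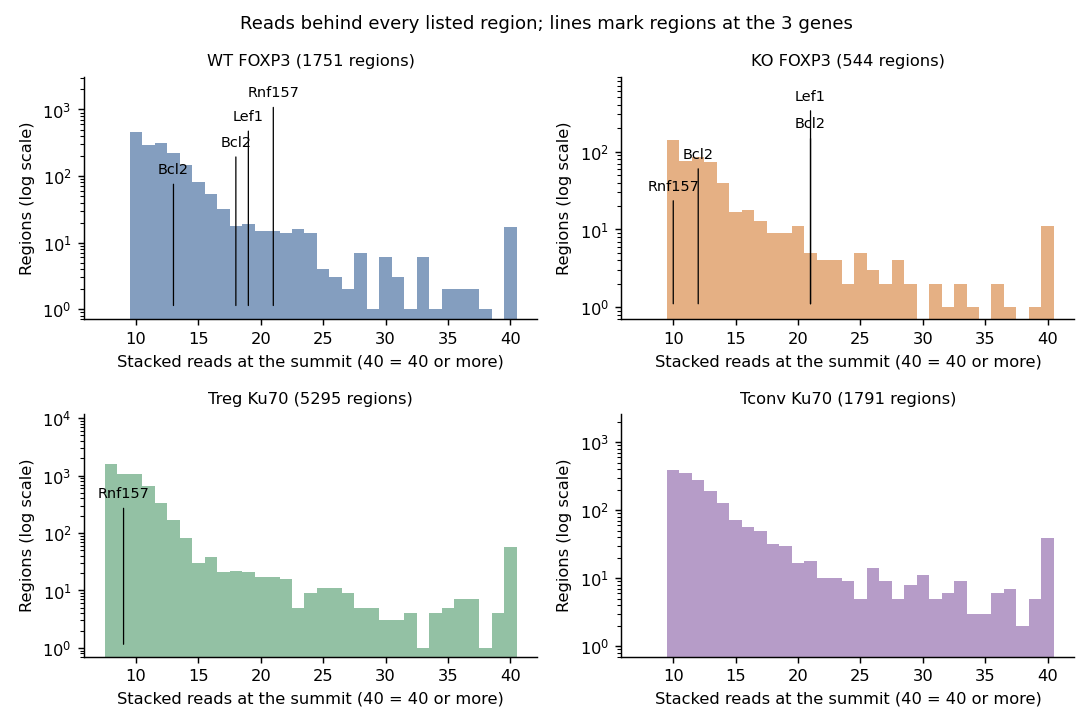
Number of regions (log scale) by the stacked reads at the summit for each of the 4 lists, with 40 standing for 40 or more. Lines mark the regions at Lef1, Bcl2 and Rnf157: the kept WT sites, at 18, 19 and 21 reads, are past the median of 12, the KO site of Rnf157 is at the minimum of 10, and no line falls in the Tconv Ku70 panel.

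The kept sites of the 3 genes were then set beside the other kept ones. Of the 40 WT regions that overlapped a KO region, 30 lay on autosomes or X, and for 21 of these the 31 bases around the WT summit occurred once in the genome. By WT fold, the rank named in the opening, Rnf157, Lef1 and Bcl2 had values from 3.40 to 3.04, and the next 3 shared a fold of 2.74 with 16 reads each. These next 3 were a site in Maml3, which encodes a Mastermind-like coactivator of Notch, a site 23.2 kb from Rnf19b and a site 205 kb from Rplp1. Their KO summits had 14, 19 and 20 reads, all above the 10 of Rnf157. In KO, Lef1 and Bcl2 tied at 21 reads, while Rnf157 was the only one of the 21 at the minimum. The other 18 ran from 11 to 94 KO reads with a median of 17.5. KO over WT was below 1 at 4 of the 21, among them Rnf157, and above 1 at 17, among them Lef1 and Bcl2. The counting interval of the ratio included 1 at 20 of the 21, among them all 3 genes. Most of these directions are therefore not resolved at this depth. Of the 21, 10 lay inside a protein-coding gene. A Treg Ku70 region overlapped 1 of the 21 and a Tconv Ku70 region none, so the other overlaps of kept regions with Ku70 lay on the mitochondrial genome, on an unplaced contig or at summits with more than 1 copy.

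**Figure D4:**
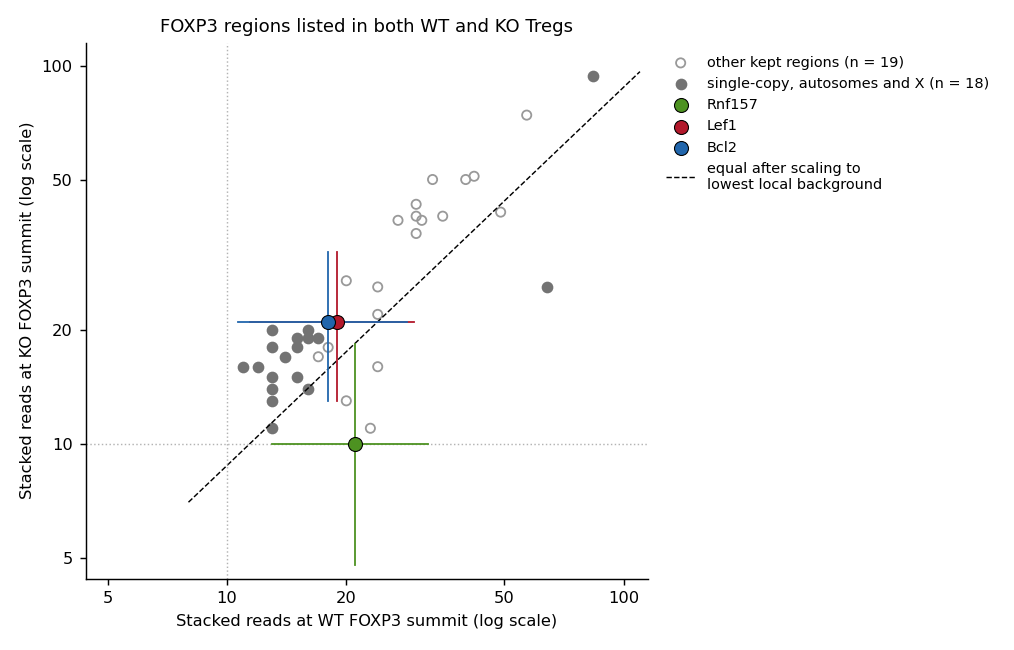
Stacked reads at the WT summit (horizontal) and at the KO summit (vertical), both on log scales, for the 40 kept FOXP3 regions. Crosses on Lef1, Bcl2 and Rnf157 are exact 95% Poisson intervals, dotted lines mark the listing minimum of 10 reads and the dashed line marks equal reads after scaling to the lowest local background of each list. Lef1 and Bcl2 are above the dashed line, and Rnf157, at 21 WT and 10 KO reads, is below it.

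The rule that chose the kept sites did not use their sequence. The genes and motifs were, however, chosen with earlier results of these data known. RUNX, marked in the printed sequences, was among several motifs searched, so the matches are a description with no test. The forkhead core TGTTTAC, which FOXP3 can bind, was absent on both strands from the 3 kept WT regions and from their KO regions. It was found in 2.34% of all 1712 WT FOXP3 regions on the chromosomes and in 3.06% of 523 KO regions, so most listed regions lacked it as well. The T3G repeat TTTGTTTG, another element that FOXP3 binds, was found at the 3 genes only in the KO-only region of Bcl2, 41.5 bp from its higher summit. In the wide KO region of Bcl2 the related core TATTGAC lay 169 bp from the summit, and the wider forkhead set was in 8.60% of all KO regions.

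The RUNX core TGTGGT was found in all 3 kept sites, in WT and in KO regions alike. In Lef1 its centre was 11.5 bp from the WT summit and in Bcl2, on the minus strand, 29.5 bp. In Rnf157, also on the minus strand, it was 79.5 bp from the WT summit and 39.5 bp from the KO summit. Within 50 bp of the summit, the core was thus found in WT at Lef1 and Bcl2 but not at Rnf157, and in KO at all 3. That window held the core at 8.06% of all WT and 12.0% of all KO FOXP3 summits. None of the single-list sites of Bcl2, nor the Ku70 region of Rnf157, held it. The core was present in 12.9% of all WT FOXP3 regions and 20.1% of all KO FOXP3 regions. It was also present in 10 of the other 18 kept single-copy WT regions (55.6%) and in 9 of their KO regions. Regions of this set were wider, with a median of 218 bp beside 168 bp for all WT regions, and the part of width in this share was not tested. RUNX was not the only motif with a higher share in these 18 than in all WT regions. The forkhead core was in 11.1% beside 2.34%, and a TCF/LEF core, CTTTGAA or CTTTGAT, in 16.7% beside 8.47%. The NFAT core GGAAAA was in 3 of the other 18 (16.7%) and in none of the 3 genes, beside 15.4% of all WT regions. The E-box CAGCTG was in 1 of the 18 (5.56%) and in Rnf157, beside 9.64%. No kept region of the 3 genes held the AP-1 cores TGACTCA or TGAGTCA, which were in 3.21% of all WT regions.

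Rnf157 held in addition the TCF/LEF core CTTTGAA, the element that LEF1 itself binds, 60 bp from its WT summit. Either CTTTGAA or CTTTGAT was in 8.47% of all WT regions, and neither was in the kept regions of Lef1 or Bcl2. The ETS core AGGAAG, which was chosen after the sequences had been seen, occurred 2 times within 7 bp of the WT summit of Bcl2 and 5.5 bp from that of Rnf157, but not in Lef1. It was in 21.6% of all WT regions and in 6 of the other 18 kept ones. The WT region of Lef1 was rich in G and C, at 58.2%, above 98.8% of the WT list. Bcl2, at 43.8%, and Rnf157, at 50.9%, were nearer the median of 45.9%. Repeats marked in the reference took up 12.0% of the Lef1 region, 21.5% of the Bcl2 region and 6.51% of the Rnf157 region, beside a median of 18.6%.

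The relatives of the 3 genes had no kept site. Of 14 other TCF/LEF factors and Wnt nuclear partners, none had a WT or KO FOXP3 region in the window, 1 had a Treg Ku70 region and 2 a Tconv Ku70 region. Of 22 other members of the BCL2 family, 2 had a WT FOXP3 region and none a KO one. The first was Bok, a pro-apoptotic member, with 11 reads at 47.9 kb before its start, inside Stk25. The other was Bcl2a1b, an anti-apoptotic member of a cluster of near-identical copies, with 16 reads at 31.1 kb outside the gene, inside Mthfs. Of 13 other RING and HECT ubiquitin ligases, 2 had a WT region, inside Itch with 12 reads and inside Nedd4l with 16 reads, and none a KO region. A Treg Ku70 region was found at 3 of the 22 BCL2 family genes and 4 of the 13 ligases, and a Tconv Ku70 region at 2 of the 22 and 3 of the 13. Over all protein-coding genes the shares were 7.18% for WT and 2.65% for KO FOXP3, and 23.4% for Treg and 10.8% for Tconv Ku70, and with so few genes nothing particular to these lists is read from the counts.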

How the data were processed

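Per the study's methods and processing notes, the authors aligned trimmed reads (Trim Galore) to mm10 using Bowtie2 and discarded duplicates (Picard). MACS2 then called regions on pooled replicates, with the input as control, at a p-value of 0.05, without a model and with reads extended to 140 bp. Versions are not given in the sources used here. The deposited lists give the fold enrichment (a ratio) of each summit, its −log10 p-value and −log10 q-value, a score and the summit offset. The authors' fold adds a pseudocount of 1 to reads and background after both are scaled down to the depth of the input. The reads and backgrounds printed here are unscaled. A read counted as 0.438 in the WT and 0.330 in the KO FOXP3 list, and as 0.514 in Treg and 0.554 in Tconv Ku70. The pseudocount thus pulls the folds of the lists towards 1 to different degrees.

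Fold and p-value are functions of stacked reads and local background, and were solved for both within 0.001, which gave whole reads for 100% of summits. This was tested on simulated data. Backgrounds were converted to depth with 1.87e+09, the mouse genome size of the peak caller. They imply 45.8 to 58.5 M immunoprecipitated reads per set and 16.9 to 28.3 M input reads, and the total per sample is not in the lists. Summits of a region were combined, keeping the highest. Genes were those of GENCODE M21. Motifs were sought on both strands over whole regions and within 50 bp of summits. Copies of 31 bases were counted over chromosomes and unplaced contigs, and near copies with BLAST 2.17.0. Python 3.11.15, pandas 2.3.3, scipy 1.17.1 and pysam 0.24.0 were used. The genes, gene lists and motifs were chosen with earlier results of these data known. Named were every region at the 3 genes, relatives with a FOXP3 region, and the 3 kept single-copy sites next in fold. Windows, thresholds, overlap rules and list lengths were varied.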

Additional observations from a re-analysis of the deposited data

How the results depend on the processing

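Of 46 alternatives for counts at the 3 genes, 42 stayed within 1.5 times the reported count and 4 did not. The 42 are no measure of stability, since the choice of the genes largely fixed the FOXP3 counts and the WT and KO overlaps. The counts of FOXP3 regions overlapping Ku70 were 0 throughout, and a change from 3 genes to 2 counted as staying. With a −log10 p of at least 2, 2 KO FOXP3 regions were left in place of 4, those kept in Lef1 and Bcl2, and 0 Treg Ku70 regions in place of 1. With each list reduced to its strongest 544 regions, 0 Treg Ku70 regions were left. With a window of 100 kb, 1 Tconv Ku70 region was added, past Lef1. Under these rules 2 or 3 of the 3 genes still had a WT region that overlapped a KO region: 2 with the minimum −log10 p, where Rnf157 was lost, and 2 when at least 50% of both regions had to overlap, where Bcl2 was lost because its KO region is wide.

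The share of protein-coding genes with a region moved with the window. In the order WT and KO FOXP3, then Treg and Tconv Ku70, it was 2.46%, 0.943%, 7.74% and 3.11% inside genes alone. It was 3.45%, 1.30%, 11.3% and 4.66% within 10 kb, and 12.0%, 4.30%, 35.5% and 17.2% within 100 kb. With the minimum −log10 p it was 1.71%, 1.08%, 10.4% and 5.43%, and with lists of 544 regions 2.38%, 2.65%, 3.02% and 3.11%.

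No paired analysis was possible because each list pools its replicates, and for the same reason no replicate was left out. Depth is also a limit, with 9 to 21 reads at a summit. Absence from a list means only that the listing threshold was not reached, and does not show absence of binding. Presence at 10 reads is the least for a FOXP3 region to be listed.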
